A study of Homo sapiens with 6 samples.

Results

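The receptors LGR4, LGR5 and LGR6, their ligands RSPO1 to RSPO4 and the ubiquitin ligases RNF43 and ZNRF3, 9 of the 19775 genes with a probe set of their own on the arrays, were followed between the lines PC-3/Mc and PC-3/S. Both derive from PC-3, an established human cell line grown from a metastasis of prostate cancer in bone. Neither line is labelled with a treatment or an introduced gene, and 2 lines of 1 origin cannot stand for prostate cancers in general. The arrays numbered 3 a line, from cells collected before confluence. The title of the series concerns loss of tumor-initiating traits through epithelial-mesenchymal transition, and the lines are the only groups compared. The genes were chosen by their role in the axis once differences of LGR5, LGR4 and RNF43 between these same arrays were known, so the members' own differences are given as a description, with no p-value. Where members are counted as called in the fit over all probe sets, the count is descriptive too and supports nothing. All 9 genes had a probe set annotated to their symbol alone, 13 probe sets of the 54613 non-control probe sets. The labels number the replicates as biological but do not say whether they were separate cultures, so the spread may be partly technical.

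The R-spondin axis sets how many WNT receptors a cell keeps at its surface. The transmembrane ubiquitin ligases RNF43 and ZNRF3 send frizzled receptors for degradation. Secreted R-spondins (RSPO1 to RSPO4) bridge these ligases to the receptors LGR4, LGR5 and LGR6, the ligase is cleared from the membrane, and the response to WNT ligands rises. LGR5 is best known as a marker of cycling stem cells in the intestine and hair follicle, LGR4 is expressed in many epithelia, and LGR5, RNF43 and ZNRF3 are themselves beta-catenin targets in the intestine.

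The promoter windows of LGR4 and RNF43 are shown because these genes, with LGR5, were the members more than 2-fold higher in PC-3/Mc, and because genes of this axis are read here beside TCF/LEF targets. The sequences are RefSeq's, build GRCh38.p14, from 250 bases before to 50 after an annotated start, both genes lying on the minus strand. The windows are chr11:27472741-27473040 for LGR4, and chr17:58417485-58417784 and chr17:58402672-58402971 for 2 starts of RNF43. Capitals mark CAAAG or its reverse complement CTTTG, the core of the TCF/LEF motif.
LGR4: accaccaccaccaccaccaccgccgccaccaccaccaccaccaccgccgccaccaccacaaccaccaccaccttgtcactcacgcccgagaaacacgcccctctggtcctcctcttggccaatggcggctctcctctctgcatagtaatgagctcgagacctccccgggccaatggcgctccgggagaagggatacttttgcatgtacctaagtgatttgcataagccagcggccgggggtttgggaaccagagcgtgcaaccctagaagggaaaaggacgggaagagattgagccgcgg
RNF43 upstream start: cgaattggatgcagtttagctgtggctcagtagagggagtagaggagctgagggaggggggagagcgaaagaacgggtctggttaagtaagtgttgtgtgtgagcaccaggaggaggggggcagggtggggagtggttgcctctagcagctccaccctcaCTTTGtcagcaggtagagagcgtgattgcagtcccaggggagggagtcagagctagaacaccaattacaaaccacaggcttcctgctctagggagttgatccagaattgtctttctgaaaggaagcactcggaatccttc
RNF43 downstream start: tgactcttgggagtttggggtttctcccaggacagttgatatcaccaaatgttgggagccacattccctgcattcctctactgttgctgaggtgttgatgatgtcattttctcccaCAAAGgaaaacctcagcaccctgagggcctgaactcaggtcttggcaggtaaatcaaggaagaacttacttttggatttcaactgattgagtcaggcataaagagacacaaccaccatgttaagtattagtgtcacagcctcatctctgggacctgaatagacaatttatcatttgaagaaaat

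Each RNF43 window held the core once, beginning at base 161 of the upstream window and at base 117 of the downstream window, and the LGR4 window did not hold it. The core is common, being found on either strand in 47.5% of 35116 promoter windows of this length. The longer form ATCAAAG, searched on both strands, contains the core and is found in 2.62% of windows. It was in none of the 3. The E-box CACCTG, also searched on both strands and found in 20.6% of windows, was in none of them either. The LGR4 window had 61.3% G and C with 18 CpG pairs, against 54.3% with 5 and 43.7% with 0 for the RNF43 windows. The median over all windows was 58.7% and 14 pairs. These matches describe letters in these windows and were not linked to the expression values by a test.

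Values below are log2 expression values as deposited, every mean ± SD or difference ± SE rests on n = 3 arrays a line, and each difference is PC-3/Mc minus PC-3/S. Array medians lay between 4.98 and 5.09. To judge which readings may be background, CTNNA1, which PC-3 cells have lost by deletion, was read on its 5 probe sets at 3.51 to 5.18, a choice made after its values were seen. Genes of olfactory receptors, most of which are not expected in this tissue, had 135 probe sets, all of which were kept. Their median was 4.31 and their 95th percentile 5.53, and 125 of them averaged 5.18 or less. A reading of 5.18 or less is therefore called dim. Where one line was dim, a fold is a lower bound, with each of its arrays raised to 5.18. The floor comes from other probes and is rough, so "at least" and "lower bound" hold only where background does not exceed it. Of the 13 member probe sets, 7 were dim on every array, 6 exceeded 5.18 on every PC-3/Mc array, and 2 did so on every PC-3/S array.

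The lines carried epithelial transcripts, with 7 of 7 epithelial markers averaging above 5.18 in the PC-3/Mc arrays and 6 of 7 in those of PC-3/S, where CDH1 was dim. These markers did not move together. EPCAM averaged 11.88 and 6.44, CDH1 7.67 and 4.0, KRT18 12.48 and 11.32, and KRT8 9.81 and 8.78, in PC-3/Mc and PC-3/S respectively. KRT7 (6.86 and 8.40) and KRT19 (11.28 and 11.76) were lower in PC-3/Mc, and CLDN4 averaged 8.03 and 7.94 and was not called. Of 4 measured markers of luminal prostate cells, 3 averaged above 5.18 in each line, none above 6.73. Of 6 intestinal markers, 1 (CDX1, at 6.60 and 6.92) exceeded 5.18 in each line. Leukocyte markers exceeded it for 0 and 1 of 4 measured, endothelial markers for 2 and 3 of 6. Fibroblast markers did so for 1 and 4 of 6, with a summed level (log2 of the summed linear values) of 8.17 to 8.38 over the PC-3/Mc arrays and 8.62 to 8.69 over the PC-3/S arrays, and their part in the differences was not tested.

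The receptors LGR5 and LGR4 were higher in PC-3/Mc, the ligase RNF43 was higher too, its paralog ZNRF3 was slightly lower, and R-spondin transcripts were dim in both lines. A probe set was called where its adjusted p was under 0.05 in limma, with Benjamini-Hochberg adjustment over all probe sets, and 6 member probe sets were called higher in PC-3/Mc, 3 lower and 4 were not called. Of all probe sets, 35.9% were called, 18.4% higher and 17.5% lower. The median difference was 0.22 over the member probe sets and -0.01 over all probe sets. For 10 of the 13 every reading of one line lay above every reading of the other, which held for 45.3% of all probe sets. Because the genes were taken up with this contrast known, nothing is read from these counts. RNA came from whole cultures, in which more cells with a transcript and more transcript per cell cannot be told apart.

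**Figure D1:**
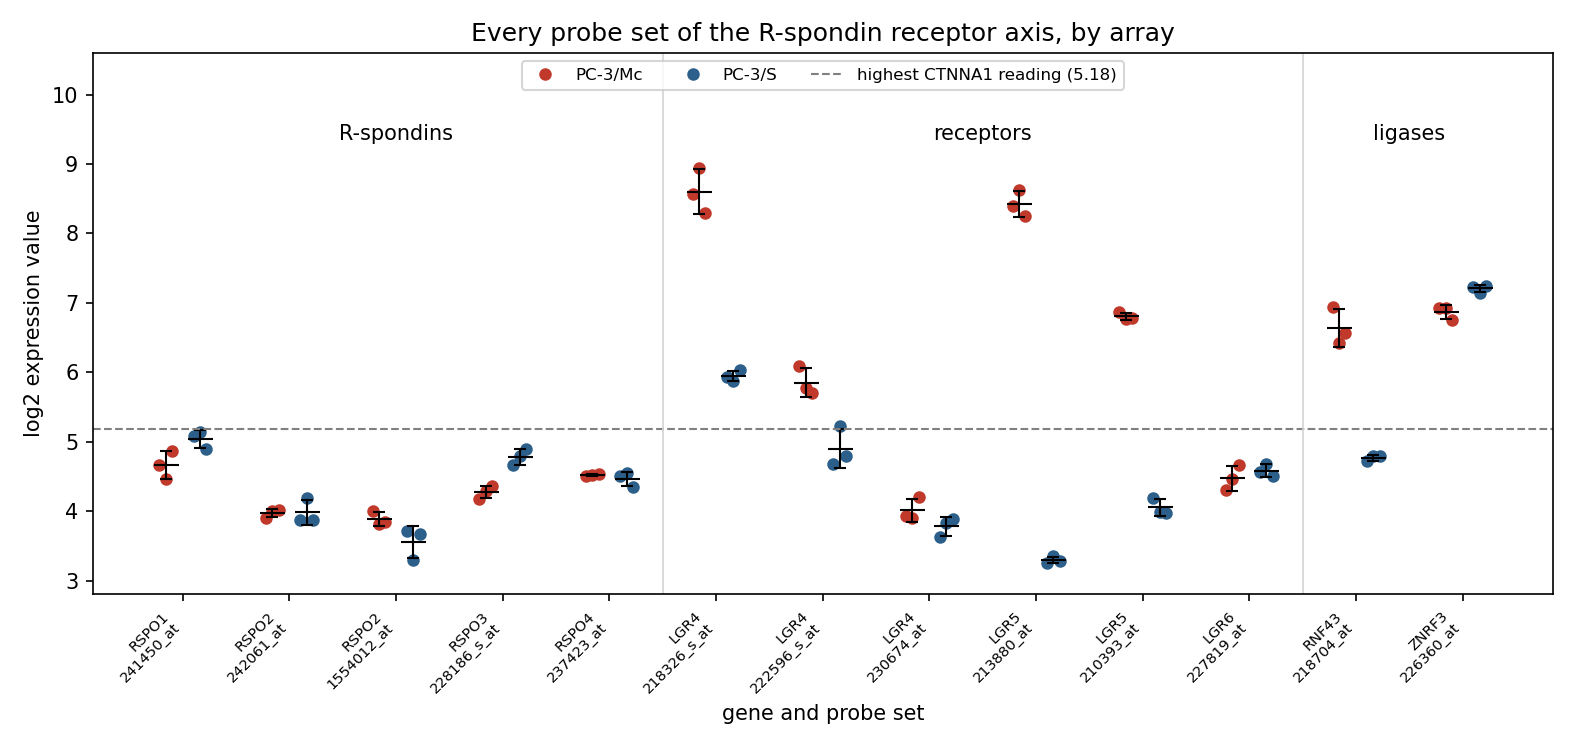
The vertical axis is the log2 expression value and the horizontal axis the 13 member probe sets, grouped as R-spondins, receptors and ligases. Dots are single arrays (red PC-3/Mc, blue PC-3/S, replicates 1 to 3 from left to right), bars are mean ± SD of 3 arrays, and the dashed line is the highest CTNNA1 reading, 5.18. All 5 R-spondin probe sets lie under the line in both lines, while both LGR5 probe sets and RNF43 lie above it in PC-3/Mc only.

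LGR5, a seven-transmembrane receptor with a leucine-rich ectodomain that binds R-spondins, was the member with the largest difference. Its probe set 213880_at read 8.40, 8.62 and 8.25 in PC-3/Mc replicates 1, 2 and 3, and 3.26, 3.35 and 3.28 in those of PC-3/S. The 3 PC-3/Mc arrays were high and close together, the PC-3/S arrays were at the low end of background, and the groups lay far apart. Means were 8.42 ± 0.19 and 3.30 ± 0.05, a difference of 5.13 ± 0.10, or at least 9.50-fold. In PC-3/S, 132 of the 135 olfactory receptor probe sets averaged more than it did.

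The other LGR5 probe set, 210393_at, showed the same direction at a smaller size. It read 6.87, 6.77 and 6.78 in PC-3/Mc and 4.19, 3.99 and 3.98 in PC-3/S, again without overlap. The difference was 2.75 ± 0.09 and the lower bound 3.09-fold. The probe sets of one gene share their RNA, so they do not count as separate evidence.

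LGR4, the broadly expressed R-spondin receptor, was measured by 3 probe sets that did not give the same size. The brightest, 218326_s_at, read 8.57, 8.94 and 8.29 in PC-3/Mc and 5.94, 5.88 and 6.03 in PC-3/S. Unlike LGR5, LGR4 was above 5.18 on every PC-3/S array by this probe set, and the lines did not overlap. Means of 8.60 ± 0.33 and 5.95 ± 0.07 gave a difference of 2.65 ± 0.14, or 6.29-fold. The PC-3/Mc arrays were more spread than those of PC-3/S. Replicate 2 was the highest and replicate 3 the lowest of the PC-3/Mc arrays for both this probe set and LGR5 213880_at.

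The probe set 222596_s_at of LGR4 read 6.09, 5.77 and 5.70 in PC-3/Mc and 4.68, 5.22 and 4.80 in PC-3/S. It pointed the same way without overlap, but only 1 PC-3/S array rose above 5.18, and the lower bound was 1.58-fold for a difference of 0.95 ± 0.14. The third, 230674_at, read 3.93, 3.90 and 4.20 against 3.63, 3.83 and 3.89. It was dim on every array and differed by 0.22 ± 0.11. The ending _s_at marks probe sets whose probes match several transcripts, and LGR4 above background rested on the 2 probe sets of that kind.

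LGR6, the third receptor, was dim throughout. Probe set 227819_at read 4.30, 4.47 and 4.66 in PC-3/Mc and 4.57, 4.68 and 4.50 in PC-3/S. The groups overlapped, and the difference of -0.10 ± 0.10 was no larger than its error.

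RNF43, a ligase that removes frizzled receptors, was measured by 218704_at. It read 6.94, 6.42 and 6.56 in PC-3/Mc and 4.72, 4.79 and 4.79 in PC-3/S. All PC-3/Mc arrays were above 5.18 and all PC-3/S arrays below it. Means were 6.64 ± 0.27 and 4.77 ± 0.04, a difference of 1.87 ± 0.12 or at least 2.76-fold. PC-3/Mc replicate 1 was the highest array for RNF43, as it was for LGR5 210393_at and LGR4 222596_s_at, but not for the brighter probe sets of those receptors.

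ZNRF3, the paralog with the same task, was measured by 226360_at at 6.92, 6.93 and 6.75 in PC-3/Mc and 7.23, 7.15 and 7.25 in PC-3/S. It exceeded 5.18 on all 6 arrays, and every PC-3/S array lay above every PC-3/Mc array. The means of 6.87 ± 0.11 and 7.21 ± 0.05 gave a difference of -0.34 ± 0.09, that is 1.27-fold higher in PC-3/S. The ligases thus stood on opposite sides, RNF43 with a larger difference than ZNRF3.

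Among the R-spondins, the secreted ligands of this system, no probe set exceeded 5.14 on any array and the lowest reading was 3.29. RSPO3 (228186_s_at) read 4.18, 4.29 and 4.36 in PC-3/Mc and 4.67, 4.79 and 4.90 in PC-3/S. RSPO1 (241450_at) read 4.67, 4.46 and 4.86 against 5.09, 5.14 and 4.90. Both were lower in PC-3/Mc without overlap, by differences of -0.51 ± 0.09 and -0.38 ± 0.11, within the range that CTNNA1 covers, and no fold is given.

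RSPO2 had 2 probe sets, and only 1554012_at differed by more than its error. On 1554012_at the readings were 4.0, 3.81 and 3.85 in PC-3/Mc and 3.71, 3.29 and 3.67 in PC-3/S, a difference of 0.33 ± 0.12. On 242061_at they were 3.90, 4.0 and 4.02 against 3.88, 4.19 and 3.88, with overlap and a difference of -0.01 ± 0.10. RSPO4 (237423_at) read 4.51, 4.52 and 4.54 against 4.50, 4.55 and 4.35, a difference of 0.06 ± 0.09 with overlap. The calls of RSPO1 and of RSPO2 1554012_at were each lost in 5 of the alternative settings, for RSPO1 with replicate number as a block and without PC-3/Mc replicate 1 or 2 or PC-3/S replicate 1 or 2, and for RSPO2 without any one PC-3/Mc array, without PC-3/S replicate 2, and with 32 added to the linear signal.

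Adding 32 to the linear signal before taking logs damps dim readings. It reduced the differences of LGR5 to 3.17 and 1.57, of RNF43 to 1.16 and of LGR4 222596_s_at to 0.54, while LGR4 218326_s_at stayed at 2.17. For LGR5, RNF43 and LGR4 222596_s_at the damped differences were smaller than the folds given above as lower bounds, which depend on the floor. The sizes of differences against a dim line are therefore uncertain. No alternative turned the direction for LGR5, LGR4, RNF43, ZNRF3, RSPO1 or RSPO3. The lines did not overlap on their probe sets, so leaving out an array or adding signal could not turn it. The unchanged direction therefore supports nothing.

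**Figure D2:**
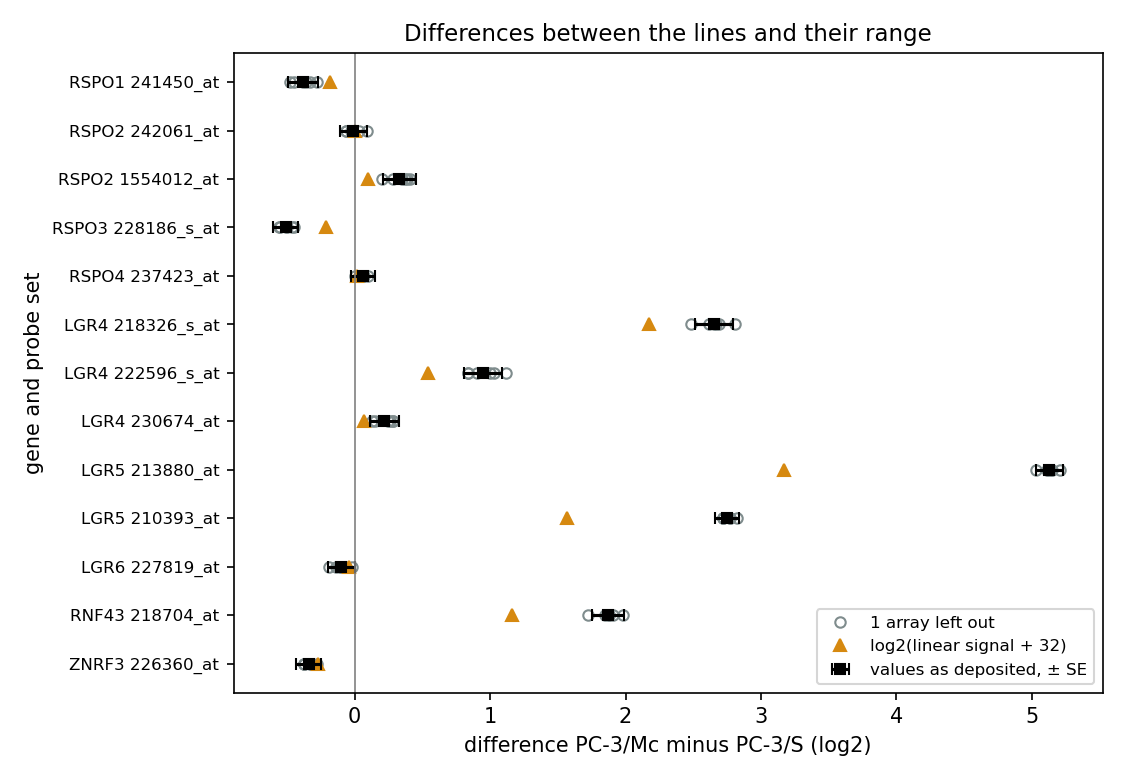
The horizontal axis is the log2 difference PC-3/Mc minus PC-3/S and the vertical axis the 13 member probe sets. Squares with bars are the difference ± SE from the deposited values, open circles the differences with 1 of the 6 arrays left out, and triangles those with 32 added to the linear signal. LGR5 213880_at lies between 5.03 and 5.21 whichever array is left out but at 3.17 with the added signal, and RNF43 and ZNRF3 lie on opposite sides of 0.

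The genes with the most similar pattern were sought over 6 arrays among 19774 other genes, as those whose values, centred on the gene's own mean, lay at the smallest Euclidean distance. For LGR5 they were BEND4 (distance 0.11), LIMCH1, an actin-binding protein (0.18), the adhesion receptor gene ADGRL2 (0.26) and CXADR, a junctional adhesion molecule (0.26). BEND4 averaged 8.41 for PC-3/Mc and 3.28 for PC-3/S. For LGR4 they were MMRN1 (0.18), the dystrophin gene DMD (0.24), LRIG3 (0.25) and the tubulin gene TUBB2B (0.25). For RNF43 they were C7orf33 (0.16), the integrin subunit gene ITGB4 (0.22), MLLT3 (0.23) and CRABP2, a carrier of retinoic acid (0.24). With 2 lines, such a distance mostly reads the size of the difference between them.

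Other genes of the pathway were tested at the gene level, with 1 probe set a gene and adjusted p-values from limma with Benjamini-Hochberg adjustment over 19775 genes. Of those genes 23.2% were called higher and 22.7% lower in PC-3/Mc, with a median difference of -0.03. Of 134 measured genes in the 9 lists below, 31 were higher, 31 lower and 72 not called, with a median of -0.03. The shares called in either direction were close to those of all genes.

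Frizzled receptors, whose turnover the ligases control, together with co-receptors and other WNT receptors numbered 15. Of these 6 were higher, 5 lower and 4 not called (median -0.10). FZD7 read 6.49, 6.45 and 6.06 in PC-3/Mc and 3.52, 3.70 and 3.89 in PC-3/S. The PC-3/S arrays were dim, so the rise is given as at least 2.23-fold for a measured difference of 2.63 ± 0.13 (adjusted p = 4.54e-08), and its other probe set was higher as well (1.75). FZD5 rose by 1.24 ± 0.08 (adjusted p = 3.33e-07) on its brighter probe set but by 0.44 on the other. The atypical WNT receptor RYK rose by 1.19 ± 0.09 and FZD3 by 0.70 ± 0.09. LRP6, the co-receptor that frizzleds pair with, was at 7.81 ± 0.18 and 7.12 ± 0.15 and higher on all 3 of its probe sets, by 0.38 to 0.94 (adjusted p = 3.41e-04 for the brightest), while LRP5 overlapped between lines at 6.43 ± 0.13 and 6.23 ± 0.13 (adjusted p = 0.122). Lower in PC-3/Mc were FZD6 (-0.87 ± 0.11, adjusted p = 4.94e-05), the WNT5A receptor ROR1 (-0.59 ± 0.08), PTK7 (-0.38 ± 0.09) and FZD1 (-0.27 ± 0.09). PTK7 lost its call with the median over its probe sets (-0.19) and its sign as well once the _s_at and _x_at kinds were removed (0.01, adjusted p = 0.978), and FZD1 lost its call under 7 settings, among them centring of the arrays (adjusted p = 0.0897).

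WNT ligands and the genes that secrete them numbered 18, of which 2 were higher, 4 lower and 12 not called (median -0.08). WNT10B, a ligand of the beta-catenin branch, was at 7.37 ± 0.08 and 5.51 ± 0.08 (1.86 ± 0.08, adjusted p = 1.83e-08), and WNT9A was higher by 1.32 ± 0.13. WNT5A, a ligand of the non-canonical branch, was at 7.55 ± 0.11 and 9.30 ± 0.17 (-1.75 ± 0.10, adjusted p = 1.54e-07), and WNT7B was lower by a difference of -0.48 ± 0.11. Secreted and surface antagonists were mostly dim, with 12 of 17 at or under 5.18 on every array. In limma 0 were called higher and 1 lower, against 1 and 2 at an unadjusted p under 0.05, and 1 and 1 with the trended, robust prior (median 0.00). The gene called lower was DKK1, which blocks LRP6. It was bright in both lines at 12.57 ± 0.10 and 13.53 ± 0.09, 1.94-fold higher in PC-3/S (adjusted p = 4.42e-06).

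Genes of beta-catenin turnover and its nuclear partners numbered 27, of which 11 were higher, 6 lower and 10 not called (median 0.09). PYGO1, a nuclear partner of beta-catenin, was at least 2.58-fold higher (1.98 ± 0.12, adjusted p = 1.93e-07), with 2 of 3 probe sets called higher. TCF7L2, a DNA-binding partner of beta-catenin, was at 9.47 ± 0.18 and 8.11 ± 0.11 (1.36 ± 0.11, adjusted p = 1.39e-06), with 6 of 7 probe sets called higher. CTNNB1, the gene of beta-catenin, was at 9.01 ± 0.13 and 8.44 ± 0.19 (0.57 ± 0.11, adjusted p = 0.00132), a call lost with the median over its 3 probe sets (0.00), of which 1 was dim and 1 averaged 5.22 in each line. TLE3 rose by 0.89 ± 0.09 (0.50 with the median over its probe sets). On the lower side were the corepressor TLE4 (-2.77 ± 0.12, adjusted p = 1.47e-08, lower on all 5 of its probe sets, -1.41 with their median), the mostly repressive TCF7L1 (-2.12 ± 0.10, at least 2.82-fold) and CSNK1E (-0.76 ± 0.09). Probe sets of CSNK1D were called in opposite directions (0.75 and -0.75), and so were those of TLE1 (-0.60 to 0.49), so neither gene has a settled direction.

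WNT/beta-catenin target and feedback genes, which report on the branch that R-spondins enhance, numbered 18, of which 4 were higher, 5 lower and 9 not called (median -0.08). AXIN2, the feedback inhibitor most often used as a readout, was lower in PC-3/Mc on 2 of its 4 probe sets. On these its PC-3/Mc readings were near or under the floor of 5.18. Its brightest probe set by mean, 224176_s_at, read 5.23, 5.38 and 5.45 in PC-3/Mc and 5.87, 5.85 and 5.83 in PC-3/S (-0.50 ± 0.08, adjusted p = 4.70e-04). These PC-3/Mc readings were above 5.18 but under 5.53, the 95th percentile of the olfactory receptor probe sets. All 4 AXIN2 probe sets had a difference below 0, from -1.46 to -0.10, and 2 were called. On the 2 not called the lines overlapped. On 222696_at the PC-3/Mc arrays were dim at 4.70, 4.73 and 4.66, and those of PC-3/S read 6.10, 6.07 and 6.32. On its 2 called probe sets AXIN2 therefore differed in the opposite direction to LGR5 between the same arrays.

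Also lower in PC-3/Mc were the transcription factor SOX9 (-1.14 ± 0.10, adjusted p = 3.74e-06), the ephrin receptor EPHB3 (-1.13 ± 0.09, adjusted p = 1.09e-06), cyclin D1, CCND1 (-0.74 ± 0.08, adjusted p = 2.11e-05), and TNFRSF19 (-0.63 ± 0.11, adjusted p = 6.00e-04), which lost its call with the median over its probe sets (-0.18). The higher genes were BAMBI, a pseudoreceptor that blocks TGF-beta signalling (2.07 ± 0.15, adjusted p = 9.38e-07), MYC (1.70 ± 0.07, adjusted p = 1.73e-08), ZNF703 (0.51 ± 0.10, adjusted p = 0.00142; 0.23 and not called with the median over probe sets) and SP5 (0.35 ± 0.09, adjusted p = 0.00815), named after its value was seen. NKD1, another feedback inhibitor, overlapped between the lines at 5.41 ± 0.15 and 5.48 ± 0.08 (adjusted p = 0.565).

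**Figure D3:**
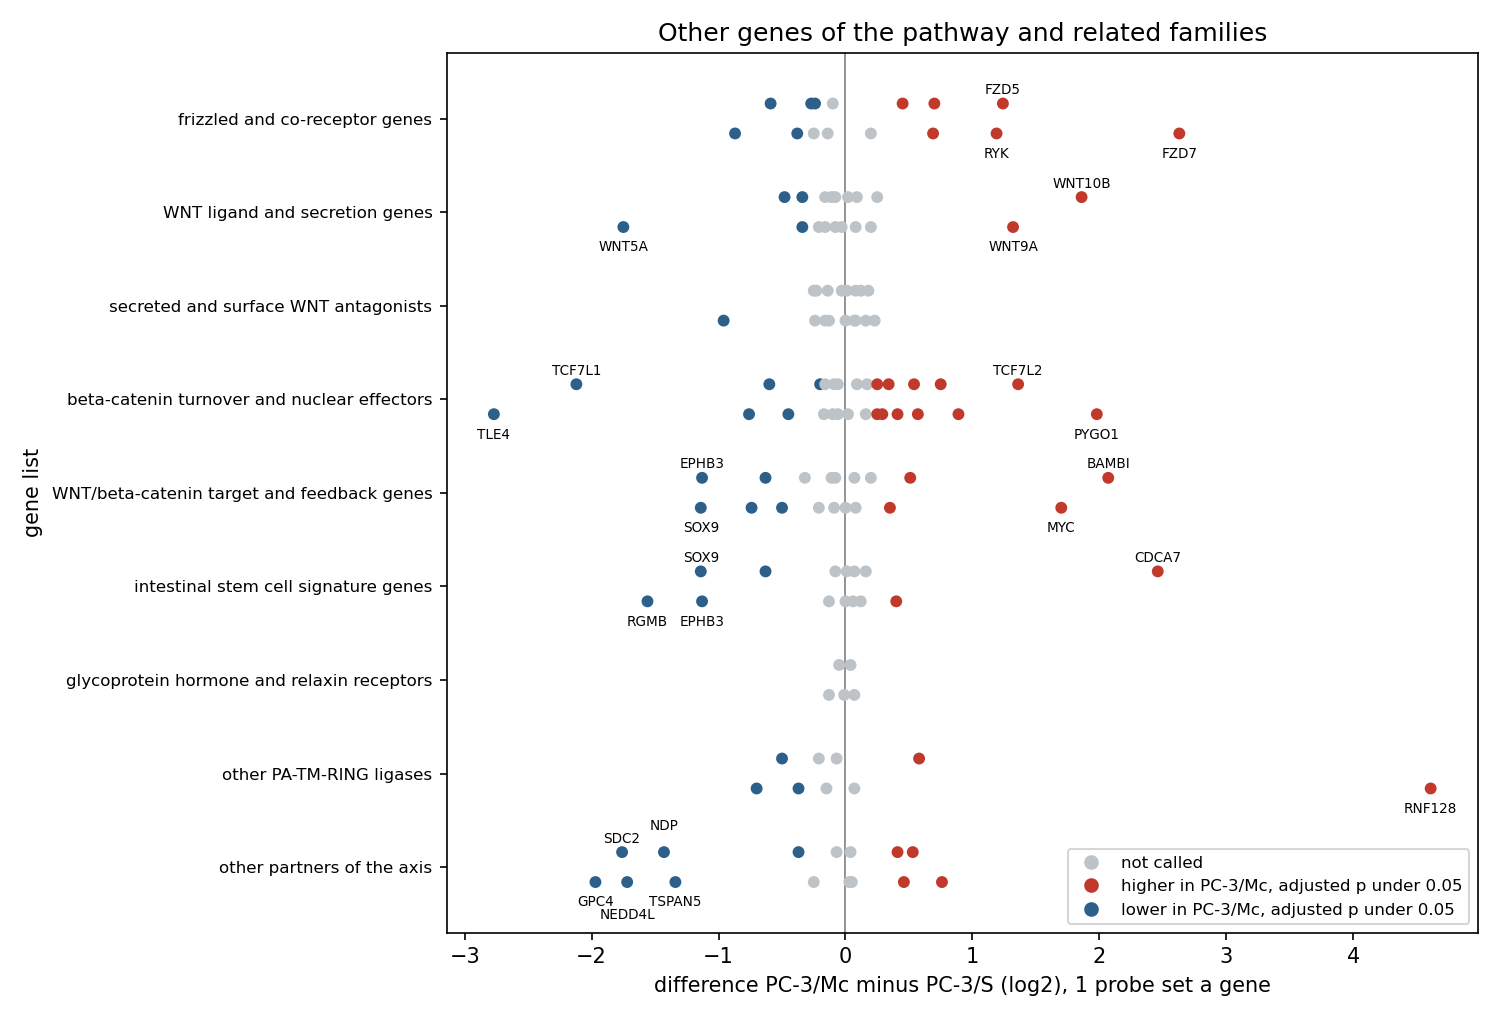
The horizontal axis is the log2 difference PC-3/Mc minus PC-3/S for 1 probe set a gene, and each row of points on the vertical axis is a gene list without the members. Red and blue points are genes called higher or lower in PC-3/Mc at an adjusted p under 0.05, grey points were not called, points are offset vertically for legibility only, and called genes of at least 2-fold difference are labelled. Both directions occur among frizzled, ligand, effector and target genes, and RNF128 at 4.61 lies farthest from 0.

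Genes that mark intestinal stem cells together with LGR5 numbered 14, of which 2 were higher, 4 lower and 8 not called (median 0.00), and 4 measured genes are shared with the target list. CDCA7 was higher by 2.46 ± 0.09 (adjusted p = 3.86e-09) on its brighter probe set and by 0.71 on the other, and TERT, the telomerase gene named after its value was seen, by 0.40 ± 0.13 (adjusted p = 0.0277). RGMB, a BMP co-receptor, was lower (-1.56 ± 0.08, adjusted p = 5.36e-08), on all 4 of its probe sets, together with SOX9, EPHB3 and TNFRSF19. ASCL2, the transcription factor most tied to LGR5 in the gut, was dim at 4.81 ± 0.09 and 4.74 ± 0.08 (adjusted p = 0.564).

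The closest relatives of the LGR receptors are the glycoprotein hormone and relaxin receptors FSHR, LHCGR, TSHR, RXFP1 and RXFP2. All 5 were dim on every array, 0 were called by limma, 0 had an unadjusted p under 0.05 and 0 were called with the trended, robust prior. Of 9 other ligases of the PA-TM-RING type to which RNF43 and ZNRF3 belong, 2 were higher, 3 lower and 4 not called. RNF128, a ligase known as GRAIL from T-cell anergy, read 7.87, 8.27 and 7.70 in PC-3/Mc and 3.51, 3.23 and 3.28 in PC-3/S. The PC-3/Mc arrays were all high and the PC-3/S arrays all dim, at least 6.82-fold apart (4.61 ± 0.14, adjusted p = 1.02e-09). RNF149 was higher by 0.58 ± 0.09, and RNF130 (-0.70 ± 0.07, -0.27 with the median over its probe sets), RNF13 (-0.50 ± 0.09) and RNF150 (-0.37 ± 0.07), the last named after its value was seen, were lower.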

How the data were processed

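RNA of PC-3/Mc and PC-3/S was hybridised to 6 one-colour Affymetrix arrays. The authors deposited log2 expression values for 54675 probe sets, ranging from 2.59 to 14.45; the base was read from that range, and no source used here names the software or normalization. Each array took its line and replicate number from its title. Probe sets were named by platform annotation: 41091 had 1 symbol, 1801 several and 11721 none, besides 62 controls, which were left out. The symbols of all 13 member probe sets (9 genes) matched the RefSeq table by gene identifier. Promoter sequences were found for 6 of the 9 members.

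Differences were fitted with limma 3.58.1 in R 4.3.3 (lmFit, eBayes, two-sided, no covariates) over 54613 probe sets, and over 19775 genes represented by their probe set of highest mean; a call is a Benjamini-Hochberg adjusted p under 0.05. The fit was checked on simulated data. Precision is limited by the 3 arrays a line (median SE 0.0984). The members and lists were chosen with earlier results of these data known. Named from each list were up to 4 called genes a direction, of largest difference and at or above the median level of all genes (5.98) in the higher line, plus AXIN2, CTNNB1, LRP5, LRP6, FZD7, TCF7L2, NKD1, ASCL2 and KRT8.

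Alternatives were quantile normalization, median centring, an added linear signal of 32, a filter at the 40th percentile, a trended robust prior, replicate number as a block, each array left out, and other choices of probe set.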

Additional observations from a re-analysis of the deposited data

How the results depend on the processing

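Over the alternatives, 8895 to 11108 probe sets were called higher and 7983 to 9997 lower, and 26 to 33 and 27 to 35 pathway genes. Of the member probe sets 5 to 6 were called higher and 2 to 3 lower. No count moved by over 1.5 times. With the replicate block, 9141 probe sets were higher and 8302 lower, and 28 and 27 pathway genes; among members it ended the call of RSPO1 alone. The labels do not state that equal numbers mark a shared batch, so the numbers were not taken as a pairing. Deviations of same-numbered arrays from their line means had correlations of -0.006, -0.214 and -0.309. Deviations within a line cancel out, so these correlations depend on one another and cannot decide whether arrays were paired. Differently numbered pairs ran from -0.079 to 0.271. The highest were PC-3/Mc replicate 2 with PC-3/S replicate 3 (0.271) and PC-3/Mc replicate 3 with PC-3/S replicate 2 (0.257). Whether arrays shared a batch in another order was not tested. Of 49 named pathway genes, 8 changed their call or their sign in some setting, a count that leaves out changes of size alone. The sign was reversed for PTK7 (0.01) and CSNK1D (-0.75) once the _s_at and _x_at kinds of probe set were removed, and for CSNK1D (-0.75) and TLE1 (0.49) with the median over probe sets, since their probe sets disagree. Adding 32 to the linear signal reduced the differences of genes with a dim line by over 1.5 times: FZD7 to 1.32, PYGO1 to 1.17, RNF128 to 2.73, TCF7L1 to -1.27 and GPC4 to -1.18, and also that of AXIN2 to -0.30. LRP5 was called with that median (0.23, adjusted p = 0.0262). The filter removed 6 of the member probe sets and kept 7. No scaling moved the median of all probe sets beyond 0.04. Readings at or under 5.18 limit what can be said of R-spondins and LGR6: a low level was not detectable here, which does not show absence.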

Other observations

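Further partners of the axis gave 4 genes higher in PC-3/Mc, 6 lower and 5 not called of 15 measured (median -0.07, limma with Benjamini-Hochberg adjustment over all genes). NEDD4L, a ubiquitin ligase reported to act on LGR5, averaged 8.49 ± 0.07 (PC-3/Mc) and 10.21 ± 0.13 (PC-3/S) (-1.72 ± 0.09, adjusted p = 6.18e-08), with 4 of 6 probe sets called lower and a median over them of -0.94. Its relative NEDD4 was slightly higher (0.41 ± 0.10, adjusted p = 0.00585). The tetraspanin TSPAN5 was lower on all 3 probe sets (-1.34 ± 0.07, adjusted p = 9.81e-08). NDP, which encodes norrin, a ligand reported for LGR4, was dim in PC-3/Mc and averaged 5.27 ± 0.14 for PC-3/S (adjusted p = 5.86e-05, at least 1.07-fold), and was named after its value was seen.

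Heparan sulfate proteoglycans, which can bind R-spondins, differed in both directions. GPC4 was at least 2.67-fold lower in PC-3/Mc (-1.97 ± 0.11, adjusted p = 1.49e-07), on both probe sets, and SDC4 was lower (-0.37 ± 0.08, adjusted p = 0.00359). GPC6 (0.76 ± 0.08, adjusted p = 2.28e-05), GPC1 (0.53 ± 0.09, adjusted p = 6.93e-04) and SDC1 (0.46 ± 0.09, adjusted p = 0.00112) were higher. SDC2, named after its value was seen, was dim in PC-3/Mc and averaged 5.72 ± 0.08 for PC-3/S, at least 1.46-fold lower in PC-3/Mc (adjusted p = 2.68e-08).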
